A study of Homo sapiens with 12 samples.

Results

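The genes described here differed from MCF10A in the same direction in each of the 3 HRAS-derived breast epithelial lines MCF10AT1, MCF10DCIS and MCF10CA1a. A gene counted as a member when log2(TPM + 1), where TPM is transcript abundance scaled for gene length and library size, lay at least 1 above the MCF10A value in all 3 derived lines, or at least 1 below it in all 3. A log2 difference of 1 is a 2-fold difference of TPM + 1, so the differences of low genes are understated. Of 13108 genes with at least 1 TPM in at least 1 of the 4 lines, 124 were higher in all 3 derived lines, which is 0.946% of the genes compared, and 367 were lower in all 3, which is 2.8%. All differences from MCF10A given below come from the values that chose these 491 genes, so they are a description and no test was made on them.

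MCF10A is an immortalised, non-tumorigenic line of human breast epithelium. From it came MCF10AT1, transformed with an activated HRAS, MCF10DCIS, whose stage is ductal carcinoma in situ, and MCF10CA1a, whose stage is metastatic carcinoma. Bulk RNA was sequenced from 3 libraries per line, 12 in all, and all lines, MCF10A included, were grown in the same DMEM/F12 medium (horse serum, cholera toxin, hydrocortisone, insulin and EGF). Each stage is 1 line. The derived lines descend from HRAS-transformed MCF10A and are not independent transformations, and all 3 comparisons share the same MCF10A values, so a peculiarity of MCF10A or of the common ancestor appears in all of them. The deposited values are the authors' means per line: no value has an error, the spread between libraries is not known for any difference, and neither is the sequencing depth. Values of the derived lines are given throughout in the order MCF10AT1, MCF10DCIS, MCF10CA1a.

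HRAS is a membrane-bound GTPase that, when bound to GTP, signals through the RAF, MEK and ERK kinases to transcription factors of the ETS and AP-1 families. MCF10A cells resemble basal mammary epithelium: they join through E-cadherin junctions and desmosomes and express keratins and secreted epithelial proteases. Loss of such junction genes together with gain of vimentin is the usual description of an epithelial to mesenchymal transition.

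The stretches of DNA just before the transcription starts of 6 members are shown because these genes lead the higher or lower group or lie in a run of neighbouring members. They are RefSeq sequences on GRCh38.p14, written 5′ to 3′ on the gene's strand, and each was shortened where the GENCODE gene begins earlier than the RefSeq start. Capitals mark GGGCGG or its reverse complement CCGCCC, the core of a GC box. VIM (vimentin, higher) is covered by chr10:17227991-17228240, plus strand, with the motif starting 46 bases before the start. PTPRS (a receptor tyrosine phosphatase, higher) is covered by chr19:5340813-5341062, minus strand, with the motif at 245 bases. COL12A1 (collagen XII, higher) is covered by chr6:75206054-75206303, minus strand, with the motif at 218 bases. CYBA (an NADPH oxidase subunit, lower) is covered by chr16:88651153-88651303, minus strand, with the motif at 130 bases. WFDC2 (a secreted whey-acidic protein, lower) is covered by chr20:45469503-45469705, plus strand, with the motif at 113 bases. DSG3 (desmoglein 3, lower) is covered by chr18:31447491-31447740, plus strand, and holds no motif searched.
VIM: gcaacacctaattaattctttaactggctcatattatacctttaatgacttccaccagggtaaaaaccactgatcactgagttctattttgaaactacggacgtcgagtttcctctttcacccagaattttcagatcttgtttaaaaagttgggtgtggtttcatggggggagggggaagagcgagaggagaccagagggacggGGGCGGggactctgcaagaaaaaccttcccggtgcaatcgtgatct
PTPRS: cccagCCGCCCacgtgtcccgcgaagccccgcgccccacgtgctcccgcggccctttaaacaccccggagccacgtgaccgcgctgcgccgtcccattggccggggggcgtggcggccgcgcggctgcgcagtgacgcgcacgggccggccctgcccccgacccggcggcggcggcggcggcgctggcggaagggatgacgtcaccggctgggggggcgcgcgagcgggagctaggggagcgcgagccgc
COL12A1: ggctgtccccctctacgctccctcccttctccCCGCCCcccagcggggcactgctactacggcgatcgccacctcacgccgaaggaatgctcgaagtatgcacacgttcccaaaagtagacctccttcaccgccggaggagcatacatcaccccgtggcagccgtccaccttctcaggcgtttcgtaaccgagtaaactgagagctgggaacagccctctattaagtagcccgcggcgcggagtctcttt
CYBA: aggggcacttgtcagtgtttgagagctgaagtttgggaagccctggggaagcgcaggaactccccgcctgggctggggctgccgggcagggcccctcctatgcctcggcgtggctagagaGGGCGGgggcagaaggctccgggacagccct
WFDC2: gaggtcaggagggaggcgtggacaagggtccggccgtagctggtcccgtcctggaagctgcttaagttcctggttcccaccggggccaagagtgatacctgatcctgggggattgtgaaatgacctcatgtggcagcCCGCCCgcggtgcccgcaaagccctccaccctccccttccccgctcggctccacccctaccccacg
DSG3: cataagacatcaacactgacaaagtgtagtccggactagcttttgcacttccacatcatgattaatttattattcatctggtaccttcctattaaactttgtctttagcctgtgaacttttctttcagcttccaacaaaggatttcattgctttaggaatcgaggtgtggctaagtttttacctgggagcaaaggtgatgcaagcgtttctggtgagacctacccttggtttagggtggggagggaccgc

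The motifs searched on both strands were TGAGTCA (bound by AP-1), CAGGTG (an E-box bound by ZEB and SNAIL factors), TATAAA and GGGCGG. In the 250 bases before 35116 RefSeq starts, TGAGTCA was found in 4.20%, CAGGTG in 17.5%, TATAAA in 10.7% and GGGCGG in 42.6%. None of the first 3 occurs in the 6 stretches shown, which says only that these letters are not there. The stretches differed in CG dinucleotides, with 44 in that of PTPRS, 8 in that of VIM and 4 in that of DSG3, over the same 250 bases.

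The higher group started low. Its median level was 0.750 TPM in MCF10A and 5.91, 7.11 and 9.65 TPM in the derived lines, and 72 of the 124 genes were below 1 TPM in MCF10A. The median log2 difference was 1.57, 1.67 and 1.97, against -0.07, -0.38 and -0.07 over all genes compared. The largest of a gene's 3 differences was in MCF10CA1a for 73 genes, in MCF10AT1 for 28 and in MCF10DCIS for 23. In 49 genes the difference grew from MCF10AT1 to MCF10DCIS to MCF10CA1a, and in 14 it shrank in that order. The smallest of the 3 differences reached 1.5 in 42 genes, 2 in 18 and 3 in 6.

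Members of the lower group had a median of 12.9 TPM in MCF10A, against 2.86, 1.71 and 1.91 TPM in the derived lines. A fall of 1 in log2(TPM + 1) needs at least 1 TPM in MCF10A, so the rule itself keeps unexpressed genes out of this group. The contrast with the low start of the higher group is therefore partly set by the rule. The median log2 difference was -1.53, -1.92 and -1.71. In 93 of the 367 genes the mean was below 1 TPM in all 3 derived lines, and 5 were listed at 0 in all 3 (H4C13, H3C11, AL137060.6, LYNX1 and MIR6753). The derived lines lay within 1 log2 unit of each other in 259 lower genes (70.6%) and in 73 higher genes (58.9%). These 2 shares cannot be compared. The 93 lower genes below 1 TPM in all 3 derived lines lie within 1 unit whatever their values, and 0 higher genes were that low. The smallest difference was -2 or beyond in 67 lower genes, -3 or beyond in 21 and -4 or beyond in 9.

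**Figure D1:**
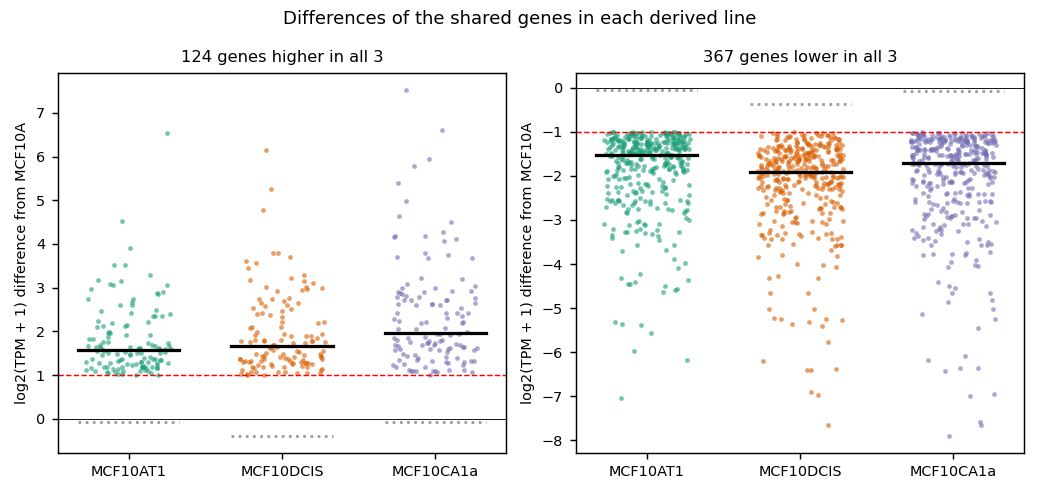
Log2(TPM + 1) difference from MCF10A (vertical axis) of each of the 124 higher genes (left) and 367 lower genes (right) in the 3 derived lines. Each point is 1 gene, black bars are the members' medians (1.57, 1.67 and 1.97 at the left, -1.53, -1.92 and -1.71 at the right), grey dotted bars are the medians of all genes compared and red dashed lines mark the threshold of 1 that chose the members.

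The members made up unequal parts of each line's differences. In MCF10AT1, 444 genes (3.39% of those compared) were higher and 770 (5.87%) lower than in MCF10A, and members were 27.9% of the former and 47.7% of the latter. In MCF10DCIS, 467 (3.56%) were higher and 1937 (14.8%) lower, and members were 26.6% and 18.9% of them. That excess of lower genes rests on the scaling, since quantile normalization gave 847 higher and 815 lower in MCF10DCIS and median-of-ratios scaling 846 and 845. In MCF10CA1a, 783 (5.97%) were higher and 936 (7.14%) lower, and members were 15.8% and 39.2%. Here too the order turned, to 842 higher and 786 lower with quantile normalization and 845 and 788 with median-of-ratios scaling. Of the genes that missed membership through 1 line, MCF10AT1 was that line most often: 193 genes were higher and 396 lower in both other lines but not in it, against 66 and 32 for MCF10DCIS and 19 and 158 for MCF10CA1a.

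HRAS itself was a member. Its mean was 50.8 TPM in MCF10A and 126, 276 and 312 TPM in the derived lines, so all 3 lay above MCF10A and MCF10AT1 was the lowest of them, with log2 differences of 1.29, 2.42 and 2.59. The values do not separate reads of the introduced HRAS from those of the cell's own gene (chr11:532242-537287).

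Genes that ERK signalling induces were the next group. Of 33 RAS family and ERK output genes measured, 5 were higher and 1 was lower in all 3 derived lines. HRAS, given above, is 1 of the 5 and is not an ERK output. The list's median log2 difference was 0.28, 0.69 and 0.98. In the respective line 6, 15 and 16 of its genes were higher by 1 or more, and 3, 4 and 1 lower. DUSP6, a phosphatase that inactivates ERK, stood at 13.4 TPM in MCF10A and at 42.4, 95.9 and 93.4 TPM in the derived lines. SPRY4, a feedback inhibitor of receptor signalling, stood at 1.73 TPM and at 6.53, 6.57 and 7.28 TPM. Both feedback genes were lowest in MCF10A, and SPRY4 was nearly level over the derived lines. ETV4, an ETS-family transcription factor, stood at 6.14 TPM and at 13.8, 16.01 and 23.8 TPM. MYC, a transcription factor for growth genes, stood at 43.5 TPM in MCF10A and at 109, 107 and 110 TPM. Among higher genes with at least 10 TPM, MYC differed least between the derived lines, followed by PEMT, a phosphatidylethanolamine methyltransferase, and RIN1, a RAS effector. EMP1, an epithelial membrane protein, went the other way, at 461 TPM in MCF10A and 163, 62.5 and 107 TPM. MAPK3, which encodes the kinase ERK1, was also a lower member, at 34.9 TPM in MCF10A and 11.3, 8.62 and 10.0 TPM in the derived lines.

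Cell junction genes were the largest group of lower members among the lists. Of 40 genes for epithelial junctions and their regulators, 11 were lower and 0 higher in all 3 derived lines. The median log2 difference of the list was -1.66, -0.98 and -0.34, and 31, 20 and 11 of its genes were lower by 1 or more in the respective line. The list was thus most displaced in MCF10AT1, and the 11 members equal the number called in MCF10CA1a.

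E-cadherin, encoded by CDH1 (chr16) and the core of adherens junctions, stood at 149 TPM in MCF10A and at 21.3, 42.3 and 51.9 TPM in the derived lines. All 3 were below MCF10A, MCF10AT1 furthest. Its smallest log2 difference was -1.51, and -0.90 once differences were centred on each chromosome's median, which ends its membership under that alternative. ELF3, an epithelial ETS factor, stood at 222 TPM and at 10.9, 17.8 and 50.1 TPM. ESRP2, an epithelial splicing regulator, stood at 34.1 TPM and at 13.3, 13.7 and 15.6 TPM. Both regulators were lowest in MCF10AT1. OCLN, the tight junction protein occludin, stood at 9.06 TPM and at 0.850, 1.09 and 2.31 TPM. CLDN7, a claudin, stood at 181 TPM and at 25.6, 80.6 and 62.6 TPM. PRSS8, the membrane protease prostasin, stood at 75.9 TPM and at 4.99, 21.4 and 18.6 TPM, and its smallest difference was -0.92 with chromosome centring. CLDN7 and ESRP2 fell short of the threshold with rescaled TPM, with smallest differences of -0.79 and -0.93, and ESRP2 also with centring, at -0.39. TJP3 and CGN, which line the cytoplasmic side of tight junctions, completed these.

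Desmosomes, which anchor keratin filaments between cells, contributed 3 neighbouring genes at chr18:31058840-31549008. DSC2 (desmocollin 2) stood at 59.1 TPM in MCF10A and at 5.96, 4.76 and 7.52 TPM in the derived lines. DSG3, whose upstream DNA is printed above, stood at 84.5 TPM and at 13.4, 18.1 and 18.8 TPM. DSG2 stood at 85.9 TPM and at 25.5, 21.6 and 29.8 TPM. The derived lines were close to each other in these 3 cadherins and all lay below MCF10A.

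The mesenchymal list did not share that pattern. Of 18 mesenchymal genes and regulators of the transition measured, VIM alone was a member, and 12, 2 and 2 of the list were higher in the respective line, with a median log2 difference of 1.72, -0.15 and -0.27. VIM, an intermediate filament protein, stood at 4.56 TPM in MCF10A and at 516, 213 and 74.1 TPM in the derived lines. Each derived line was far above MCF10A, and the level was highest in MCF10AT1 and lowest in MCF10CA1a. VIM-AS1, antisense to VIM, was a member as well, at 0.17 TPM and at 2.71, 1.77 and 1.75 TPM. No source used here gives the strand setting of the counting, so reads of VIM-AS1 and VIM may not have been told apart. AXL, a receptor tyrosine kinase, was the 1 higher member among 29 TGF-beta and YAP/TAZ genes, at 9.18 TPM in MCF10A and 78.8, 28.4 and 76.7 TPM in the derived lines.

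Keratins and other differentiation genes were lower in groups. KRT15, KRT19, KRT14 and KRT16 are consecutive among the genes compared at chr17:41513743-41615899 and all 4 were lower members. KRT15, a basal keratin, stood at 2830.4 TPM in MCF10A and at 395, 1169 and 712 TPM. Its smallest log2 difference, -1.28, was -0.91 with rescaled TPM, in which structural, small, ribosomal protein and mitochondrial RNAs are left out and the rest scaled to 1000000. KRT14, another basal keratin, stood at 57.8 TPM and at 24.6, 6.62 and 4.75 TPM. KRT16, a keratin of stressed epidermis, stood at 261 TPM and at 19.0, 47.2 and 42.6 TPM. The keratins of this run differed in order, with KRT14 lowest in MCF10CA1a and KRT15 and KRT16 lowest in MCF10AT1. KRT5, the usual partner of KRT14, was no member: it stood at 768 TPM and at 592, 643 and 126 TPM, with log2 differences of -0.37, -0.26 and -2.60. TP63, the transcription factor of basal epithelia, was a higher member, at 0.901 TPM and at 4.81, 6.22 and 10.7 TPM. Of 22 basal and myoepithelial genes measured, KRT14 and KRT15 were lower members and TP63 the 1 higher member. The list as a whole was not lower in every line, with a median log2 difference of -0.35, 0.25 and 0.12. In the respective line 2, 7 and 8 of its genes were higher by 1 or more, and 4, 4 and 5 lower.

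Of 16 epidermal differentiation genes measured, 5 were lower members and 0 higher. The list as a whole was mixed, with a median log2 difference of -0.49, -0.54 and 0.44. In the respective line 5, 7 and 5 of its genes were lower by 1 or more, and 0, 3 and 7 higher. NCCRP1, an F-box type protein of squamous epithelium, stood at 77.6 TPM in MCF10A and at 0.657, 0.069 and 0.152 TPM in the derived lines. TGM1, the transglutaminase that crosslinks the cornified envelope, stood at 8.63 TPM and at 1.31, 1.17 and 0.763 TPM. ABCA12, a lipid transporter of keratinocytes, stood at 10.5 TPM and at 3.22, 1.85 and 1.15 TPM. All 3 were lower in every derived line than in MCF10A, NCCRP1 by far the most. CASP14, the caspase of cornifying epidermis, was among the 15 leading lower members at 15.8 TPM and 0.063, 0.008 and 0.118 TPM. These genes were near 0 or a few TPM in every derived line. Among 4 hair and other keratins, KRT80 and KRT81 were lower members, with KRT81 at 2100.1 TPM in MCF10A and at 434, 1002 and 7.87 TPM. KRT81 has close copies among the hair keratins, and its smallest difference of -1.07 became -0.70 with rescaled TPM, so its membership is uncertain.

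Kallikreins, secreted serine proteases that cleave junction and matrix proteins, gave the longest run. KLK5, KLK6, KLK7, KLK8, KLK9 and KLK10 are consecutive among the genes compared at chr19:50943303-51020175, and all 6 were lower members, out of 7 kallikreins measured. KLK5 stood at 953 TPM in MCF10A and at 55.4, 112 and 179 TPM in the derived lines. KLK7 stood at 223 TPM and at 8.27, 0.122 and 0.172 TPM. KLK8 stood at 117 TPM and at 1.82, 0.396 and 0.439 TPM. The derived lines thus kept KLK5 at a reduced level, while KLK7 and KLK8 were below 1 TPM in MCF10DCIS and MCF10CA1a. KLK10 stood at 168 TPM and at 7.50, 14.7 and 14.1 TPM. KLK6 stood at 108 TPM and at 3.62, 6.88 and 28.7 TPM. KLK9 was the least abundant of the run in MCF10A, at 15.02 TPM and 1.43, 1.71 and 0.410 TPM. Related copies and the short distances between them could lead reads to be shared between kallikreins.

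Luminal and secretory genes had 8 lower members and 0 higher out of 20 measured, with a median log2 difference of -2.29, -1.24 and -1.17. WFDC2, also known as HE4, stood at 252 TPM in MCF10A and at 3.04, 2.00 and 0.261 TPM. AZGP1, a zinc-binding secreted glycoprotein, stood at 91.9 TPM and at 0.281, 1.88 and 1.86 TPM. CD24, a surface glycoprotein of luminal cells, stood at 299 TPM and at 24.3, 8.27 and 30.6 TPM. All 3 genes were among the leading 15 and their derived lines lay far below MCF10A. MSLN (mesothelin) stood at 92.0 TPM and at 12.3, 0.109 and 0.133 TPM. MUC1, a membrane mucin, stood at 123 TPM and at 55.1, 11.2 and 0.438 TPM. MUC1's smallest difference of -1.14 was -0.99 with quantile normalization, which ends its membership. It was among the lower genes whose derived lines differed most, as was VSTM2L at 147 TPM and 43.6, 0.191 and 0.204 TPM. RARRES1, AGR2 and KRT19 were the other 3 members, and RARRES1 was lowest in MCF10AT1, at 0.935 TPM against 78.4 TPM in MCF10A.

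The lower member with the largest difference in its least different line was CYBA, which encodes p22phox, the membrane subunit that NADPH oxidases share. It stood at 149 TPM in MCF10A and at 0.140, 0.258 and 0.172 TPM in the derived lines, a log2 difference of -7.04, -6.90 and -7.00. NOXO1, an organising subunit of NADPH oxidase 1, stood at 9.50 TPM and at 0.491, 0.686 and 1.36 TPM. These were the 2 members among 5 NADPH oxidase genes measured. Both lie on chromosome 16, CYBA at chr16:88643283-88651152.

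COX7A1, a muscle-type subunit of cytochrome c oxidase, stood at 42.7 TPM in MCF10A, at 0.1004 and 0.037 TPM in MCF10AT1 and MCF10DCIS, and was listed at 0 in MCF10CA1a. GPAT2, a glycerol phosphate acyltransferase, stood at 24.8 TPM and at 0.038, 0.025 and 0.021 TPM. GDPD3, a glycerophosphodiester phosphodiesterase, stood at 56.5 TPM and at 1.79, 1.89 and 4.11 TPM. All 3 metabolic genes were below 5 TPM in every derived line.

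**Figure D2:**
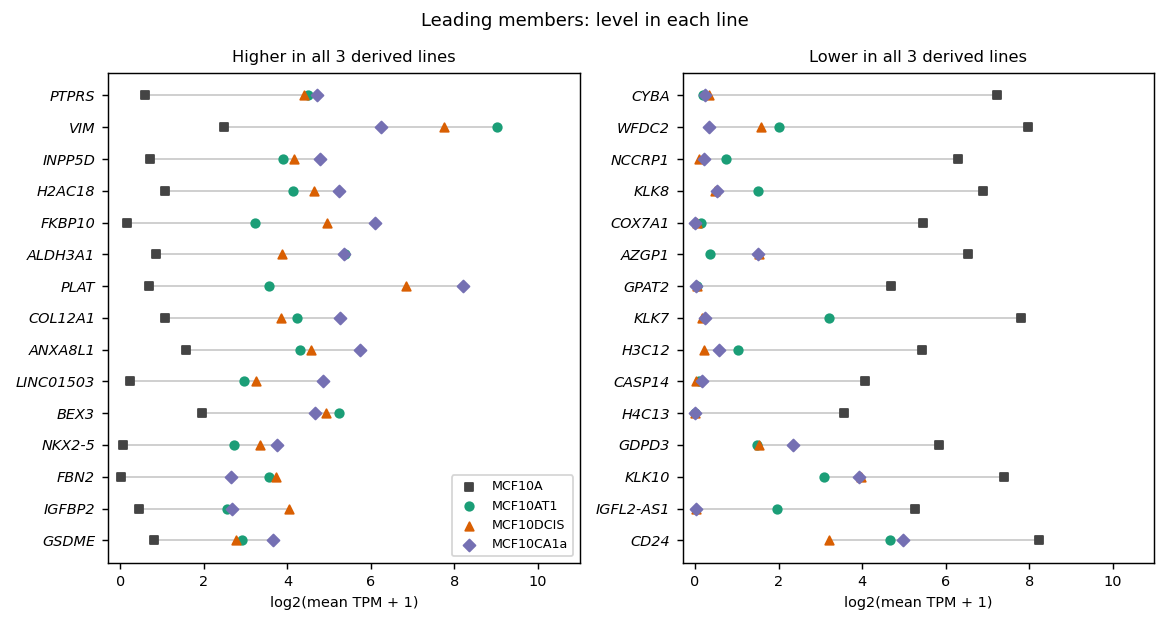
Level of the 15 leading higher genes (left) and 15 leading lower genes (right) as log2(mean TPM + 1) on the horizontal axis, 1 symbol per line and gene. The derived lines sit together to the right of MCF10A for PTPRS and at the left end for CYBA, GPAT2 and H4C13, while for VIM and PLAT they are spread, with MCF10AT1 highest for VIM and MCF10CA1a highest for PLAT.

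The leading higher member was PTPRS, which encodes a receptor tyrosine phosphatase of the LAR family. It stood at 0.504 TPM in MCF10A and at 21.6, 19.9 and 25.2 TPM in the derived lines, which were nearly level, with log2 differences of 3.91, 3.799 and 4.12. INPP5D, the inositol phosphatase SHIP1 known from blood cells, stood at 0.631 TPM and at 13.8, 16.8 and 26.4 TPM. BEX3, a small adaptor of the neurotrophin receptor, stood at 2.88 TPM and at 36.9, 29.4 and 24.4 TPM. INPP5D was highest in MCF10CA1a and BEX3 in MCF10AT1. NKX2-5, a homeobox transcription factor of heart development, stood at 0.045 TPM and at 5.64, 9.19 and 12.4 TPM. GSDME, a gasdermin that forms membrane pores when cleaved, stood at 0.734 TPM and at 6.56, 5.82 and 11.7 TPM. In each of these 5 genes the derived lines lay within about 1 log2 unit of each other and above MCF10A.

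Of 25 listed collagens, laminins and matrix proteins measured, 4 were higher members and 0 lower. The 0 holds for the listed genes only, since matrix genes outside the list went both ways. LAMA4 was a higher member, with a smallest difference of 1.68. NTN4, VWA1 and ADAMTSL4 were lower members, with -1.13, -2.18 and -1.40. COL12A1, a fibril-associated collagen, stood at 1.11 TPM in MCF10A and at 17.9, 13.3 and 37.6 TPM. COL13A1, a transmembrane collagen, stood at 0.400 TPM and at 2.05, 2.19 and 11.9 TPM. COL18A1, the basement membrane collagen from which endostatin is cut, stood at 0.216 TPM and at 2.15, 3.26 and 3.68 TPM. These 3 collagens were below or near 1 TPM in MCF10A and highest in MCF10CA1a. COL1A1, fibrillar collagen I, stood at 0.674 TPM and at 3.22, 2.78 and 2.58 TPM, and its smallest difference of 1.10 was 0.99 with chromosome centring. FBN2, a microfibril protein among the 15 leading members, stood at 0.016 TPM and at 10.7, 12.2 and 5.26 TPM. Of 17 collagen folding and crosslinking enzymes, FKBP10 was higher and LOXL2 lower. FKBP10, a chaperone of collagen in the endoplasmic reticulum, stood at 0.122 TPM and at 8.37, 30.0 and 67.7 TPM. LOXL2, a lysyl oxidase that crosslinks collagen, stood at 87.8 TPM and at 32.6, 8.19 and 15.9 TPM. LOXL2 lies on chromosome 8 and its smallest difference was -0.87 with chromosome centring.

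Proteases and their regulators went both ways. Of 21 genes of the plasminogen system, matrix proteases and inhibitors, PLAT and MMP28 were higher members and MMP7 and CTSV lower members. PLAT, tissue plasminogen activator, stood at 0.619 TPM in MCF10A and at 10.9, 113 and 294 TPM in the derived lines. It was the higher gene with the second widest spread between derived lines, lowest in MCF10AT1 and highest in MCF10CA1a. MMP7, the metalloproteinase matrilysin, stood at 11.1 TPM and at 0.796, 0.865 and 0.777 TPM, nearly the same in each derived line. CTSV, a cysteine cathepsin of epidermis, stood at 24.9 TPM and at 2.04, 4.50 and 6.39 TPM.

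Both interleukin-1 genes were higher members. IL1B stood at 0.382 TPM in MCF10A and at 2.51, 9.45 and 135 TPM, and IL1A at 0.813 TPM and at 3.12, 14.6 and 75.4 TPM. Both passed the threshold in every derived line and were far higher in MCF10CA1a, IL1B with the widest spread of any higher gene of at least 10 TPM. BIRC3, an NF-κB target that inhibits apoptosis, was lower, at 16.2 TPM and 5.43, 5.23 and 4.98 TPM. These were the members among 21 inflammatory genes, of which 2, 9 and 15 were higher in the respective line. IFITM1 was the 1 member among 28 interferon-stimulated genes, at 0.233 TPM and 1.97, 9.89 and 22.9 TPM. IGFBP2, a carrier of insulin-like growth factors, was the 1 member among 9 genes of its list, at 0.355 TPM and 4.83, 15.6 and 5.34 TPM. IFITM1 was highest in MCF10CA1a and IGFBP2 in MCF10DCIS. DEFB1, a defensin, was lower at 13.997 TPM and 2.27, 1.24 and 1.48 TPM.

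Among 28 NRF2 and xenobiotic metabolism genes, 3 were higher members and 1 was a lower member. ALDH3A1, an aldehyde dehydrogenase of epithelia, stood at 0.818 TPM in MCF10A and at 40.7, 13.6 and 40.0 TPM. AKR1C1, an aldo-keto reductase, stood at 8.29 TPM and at 42.4, 17.6 and 127 TPM, and in MCF10DCIS it just passed the threshold with a log2 difference of 1.01. UGT1A6, a glucuronosyltransferase, stood at 0.127 TPM and at 1.74, 9.46 and 60.7 TPM. AKR1C1 has near-identical relatives and UGT1A6 shares its last exons with the other UGT1A genes, so reads could be split between copies and both are uncertain. ABCC2, an export pump for conjugates, was lower at 15.3 TPM and 3.06, 0.539 and 0.533 TPM. ANXA8L1, the 1 member among 23 S100 and annexin genes, is a near-identical copy of ANXA8 and uncertain for the same reason.

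Several lists had 1 member or none. Cell cycle and replication genes had E2F2 as the 1 lower member out of 36 (2.78%). HOX genes had HOXC13 lower out of 16 (6.25%), and Eph receptors and ephrins had EFNA3 lower out of 13 (7.69%). These shares lay near or above the 2.8% of all genes. EFNA3 fell short of the threshold with quantile normalization, at -0.96. No member was found among 26 Notch and WNT genes, 30 sterol and fatty acid synthesis genes, 42 histone methylation and Polycomb genes, 15 antigen presentation genes, 39 ribosomal protein genes or 15 reference genes. With no test for any list, these counts describe the means beside the 0.946% and 2.8% of all genes. At such shares, lists of this size would hold few members or none, so a count of 0 sets no list apart. The counts also cover listed genes only. LFNG and WLS, unlisted genes of the Notch and WNT pathways, were members, with smallest differences of -1.07 and 1.33.

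**Figure D3:**
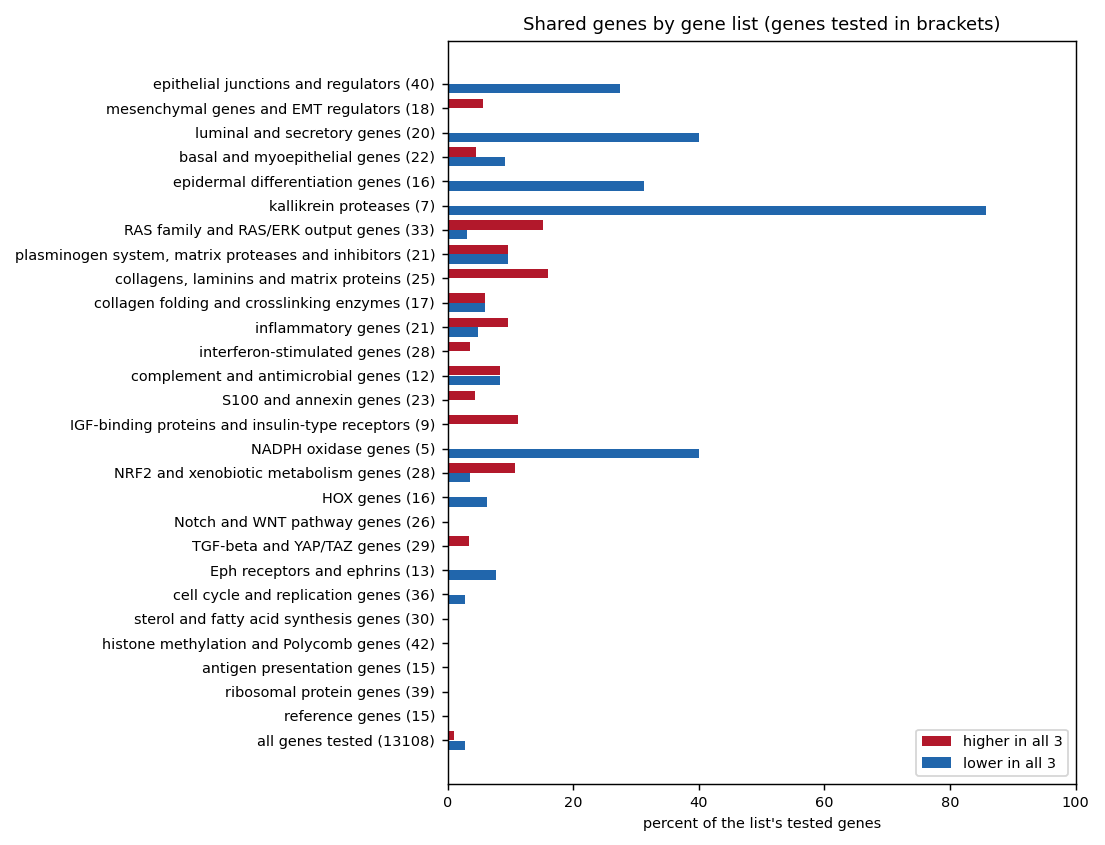
Percent of each list's measured genes (horizontal axis) that were higher (red) or lower (blue) in all 3 derived lines, for lists of at least 5 measured genes, with the number measured in brackets and all 13108 genes at the bottom. The longest bars are those of kallikreins (6 of 7 lower), luminal and secretory genes (8 of 20), NADPH oxidase genes (2 of 5), epidermal differentiation genes (5 of 16) and epithelial junctions (11 of 40).

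Markers were read in the same means. Each of 8 epithelial markers reached 1 TPM in at least 1 line, and their summed level was 6402 TPM in MCF10A and 3626, 3951 and 3541 TPM in the derived lines. Of 12 fibroblast markers 4 reached 1 TPM, with sums of 18.0, 147, 3.75 and 4.60 TPM in the 4 lines, so this list was highest in MCF10AT1, where VIM was also highest. Of 12 leukocyte markers 5 did, with sums of 69.6, 40.9, 9.66 and 16.6 TPM, and CORO1A among them was a lower member on chromosome 16. Endothelial markers (2 of 9) summed to at most 14.2 TPM and adipocyte and muscle markers (2 of 10) to at most 8.85 TPM. The part of these markers in the members' differences was not tested.

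The rule used no position, yet the lower members were unevenly placed. Chromosomes 7, 8 and 16 held 13.4% of the genes compared and 130 of the 367 lower members (35.4%). They are the 3 with the highest shares of lower members in these data, so their contrast with the rest is partly set by that choice. Lower members were 5.43% of the genes compared on chromosome 7, 9.64% on chromosome 8 and 7.81% on chromosome 16, against 2.8% over all chromosomes. The other genes of these 3 chromosomes were displaced the same way: the median log2 difference of their non-members was -0.49, -0.83 and -0.54, against -0.01, -0.31 and -0.01 for non-members elsewhere. With rescaled TPM the displacement was -0.41, -0.60 and -0.48 against 0.10, -0.02 and 0.12. Of all genes on these chromosomes 83.0% were below MCF10A in all 3 derived lines, against 33.7% elsewhere. Chromosome 18, counted as elsewhere, was also displaced. The median log2 difference over all its genes compared was -0.32, -0.69 and -0.28, and 3.66% of them were lower members. A difference in gene copies and one in transcription cannot be told apart with RNA alone.

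The concentration was strongest among members near the threshold. Lower members with a smallest difference between -1 and -1.5 lay on chromosomes 7, 8 and 16 in 92 of 234 cases (39.3%), while of the 21 members at -3 or beyond 4 did (19.0%). DGAT1, the last enzyme of triglyceride synthesis (chromosome 8), is an example of the first kind, at 24.3 TPM in MCF10A and 9.05, 8.94 and 9.20 TPM in the derived lines. Its smallest difference of -1.31 was -0.46 with chromosome centring and -0.92 with quantile normalization or median-of-ratios scaling, and each ends its membership. CYBA (chromosome 16) and AZGP1 (chromosome 7) are of the second. Centring differences on each chromosome's median left 242 lower members, 233 of them shared with the 367, and gave 155 higher members, 111 of them shared with the 124. MYC and PLAT, on chromosome 8, were higher members all the same.

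**Figure D4:**
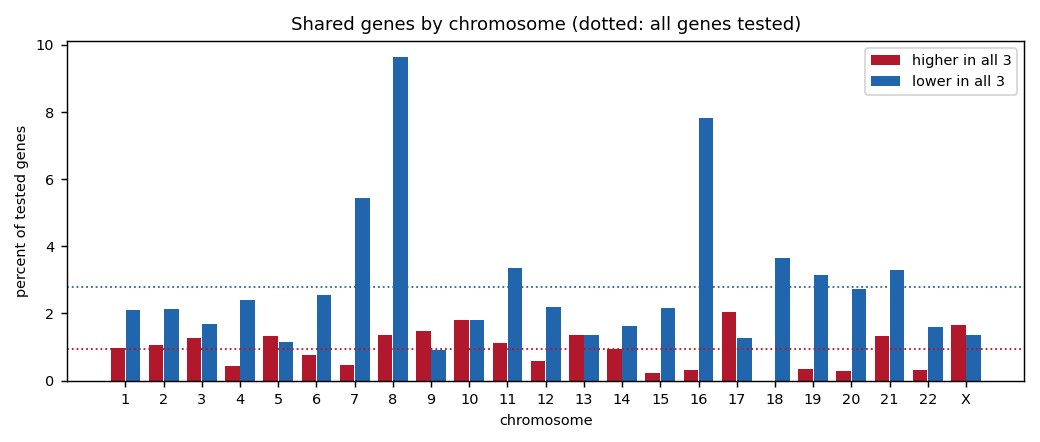
Percent of the genes compared on each chromosome (vertical axis) that were higher (red) or lower (blue) in all 3 derived lines, with dotted lines at 0.946% and 2.8%, the values over all genes. Lower members stand out on chromosome 8 (9.64%), 16 (7.81%) and 7 (5.43%), and higher members are most frequent on chromosome 17 (2.04%).

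Higher members were most frequent on chromosome 17, with 16 genes. Of these, 6 lay between USP32P1 and ALDH3A1 on the short arm, chr17:16786489-19748943, a stretch of 2.96 Mb that was delimited after the values were seen. It begins and ends at members, which raises their share of it. The stretch holds 45 of the genes compared, 0 of them lower members, and 30 were above MCF10A in all 3 derived lines while 2 were below it in all 3. The 30 is given without a share over all genes, and the 3 lines share an ancestor and the MCF10A values. The stretch's median log2 difference was 0.77, 0.43 and 0.80, against -0.07, -0.38 and -0.07 over all genes compared. With rescaled TPM it was 1.09, 0.83 and 1.07, against 0.04, -0.09 and 0.05. PEMT stood at 8.45 TPM in MCF10A and at 29.5, 29.4 and 27.8 TPM in the derived lines. ALDH3A2, a fatty aldehyde dehydrogenase next to ALDH3A1, stood at 39.6 TPM and at 113, 80.2 and 125 TPM. ALDH3A1 at the end of the stretch exceeded both, with log2 differences of 4.52, 3.01 and 4.50. FAM83G, NT5M and the pseudogene USP32P1, which resembles USP32 and is uncertain, were the other 3 members.

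**Figure D5:**
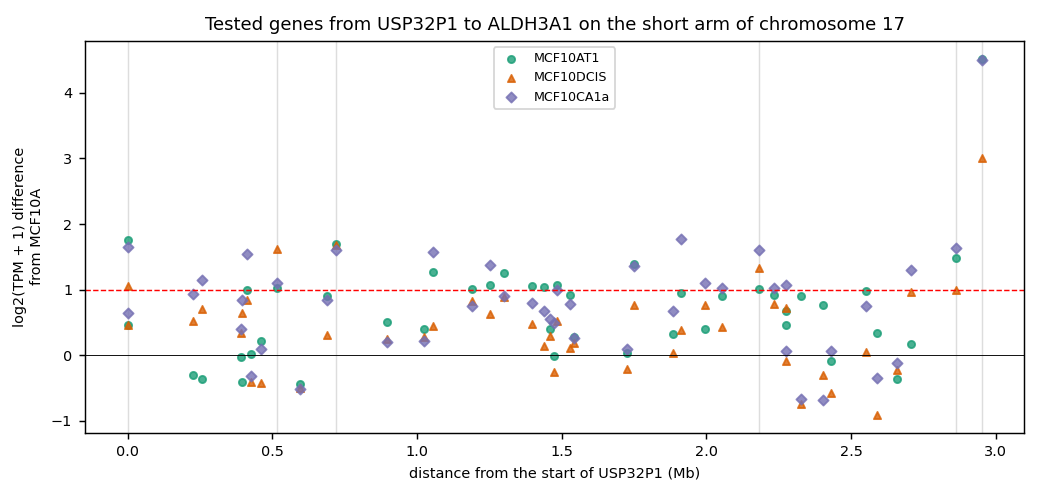
Log2(TPM + 1) difference from MCF10A (vertical axis) of the 45 genes compared between USP32P1 and ALDH3A1 on the short arm of chromosome 17, by distance from the start of USP32P1 in Mb (horizontal axis), with 1 symbol per derived line, grey vertical lines at the 6 members and a red dashed line at the threshold of 1. Most genes lie above 0 in each derived line, and ALDH3A1 at the right end lies far above the rest.

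Runs of at least 3 consecutive lower members occurred at 9 places, and none occurred among the higher members. The directions cannot be compared in this, since lower members were 2.8% of the genes compared and higher members 0.946%. Besides the kallikreins, keratins and desmosomal cadherins the runs included YPEL3, GDPD3, MAPK3 and CORO1A at chr16:30092314-30189076. MACC1, a regulator of MET expression, and ITGB8, an integrin subunit, lay with 2 non-coding genes at chr7:19918981-20415754. MACC1 stood at 38.7 TPM in MCF10A and at 1.70, 2.33 and 4.22 TPM in the derived lines. ITGB8 stood at 48.8 TPM and at 12.2, 16.1 and 9.95 TPM, and its smallest difference was -0.66 with chromosome centring. ELF3 lay between ELF3-AS1 and AL691482.3, and EMP1 between GSG1 and LINC01559. ZNF91 and ZNF675, zinc finger genes at chr19:23304991-23833314, were near 0 in MCF10DCIS only, with ZNF91 at 15.7 TPM in MCF10A and 6.78, 0.035 and 5.93 TPM. With quantile normalization their smallest differences were -0.97 and -0.98, short of the threshold. The histone genes H3C11, H4C13 and H3C12 (chr6:27871845-27890826) stood at 7.50, 10.9 and 42.0 TPM in MCF10A. H3C11 and H4C13 were listed at 0 in all 3 derived lines, and H3C12 stood at 1.04, 0.159 and 0.486 TPM. Histone genes have near-identical copies and are reported as uncertain, as is H2AC18, a higher member at 1.10 TPM in MCF10A and 16.5, 23.8 and 36.9 TPM.

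Protein-coding genes were 115 of the higher and 333 of the lower members, and long non-coding genes 5 and 22. The shares of protein-coding genes, 92.7% and 90.7%, lay near the 88.6% of all genes compared. LINC01503, a long intergenic RNA (chr9:129332300-129359538), was among the leading higher members at 0.175 TPM in MCF10A and 6.81, 8.53 and 28.1 TPM. AL356488.2 was the most abundant non-coding higher member, at 19.7 TPM and 62.0, 51.6 and 69.8 TPM. IGFL2-AS1 was the most abundant long non-coding lower member, at 37.2 TPM and 2.92, 0.013 and 0.013 TPM.

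Values listed under a microRNA gene were lower in both annotated copies. MIR3648-1 stood at 402 TPM in MCF10A and at 63.4, 27.3 and 36.0 TPM, and MIR3648-2 at 450 TPM and at 67.7, 150 and 20.4 TPM. Their mature sequence from RefSeq (chr21:8987026-8987046, GRCh38.p14, plus strand) is shown with its seed, bases 2 to 8, in capitals.
hsa-miR-3648: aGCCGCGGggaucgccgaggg
The copies cannot be told apart by sequence here, and the values come from a library of total RNA, not of small RNA, so they do not measure the mature microRNA. Which transcript the reads came from was not tested, so the values are not read as expression of a microRNA gene.

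At the edge of the rule, small shifts decided membership. Just inside were FAM83G, AKR1C1 and ALDH3A2 among higher genes, with smallest differences of 1.01, 1.01 and 1.0007, and ROS1, SLCO3A1 and CLEC16A among lower genes, with -1.01, -1.01 and -1.002. Just outside were FIBCD1, PLXNA2 and CBX6, with 0.99, 0.98 and 0.98, and CACNB3, SDCBP2 and EPGN, with -0.99995, -0.9989 and -0.9983. The share of higher genes among all members also moved with the processing. It was 25.3% with deposited TPM and 43.1% with rescaled TPM, where 279 genes were higher and 369 lower in all 3 lines, and 37.7% when the same RNA classes were left out and the rest was scaled to the MCF10A total, with 164 higher and 271 lower. Of the 123 higher members with a rescaled value all 123 stayed past the threshold, and of 364 lower members 310 did. The first count was fixed in advance. The RNA classes left out held 65.6% of TPM in MCF10A and 68.5%, 73.4% and 68.9% in the derived lines. Rescaling therefore raised the derived lines more than MCF10A, and no higher member could be lost. These counts do not compare the stability of the higher and lower groups.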

How the data were processed

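The deposited table holds TPM, as the authors' mean over the libraries of each of 4 lines, and each column sums to 1000000 TPM. STAR and edgeR are among the tools, and hg38 is the build, per the submitters' processing notes; the sources used here name no version, quantifier, annotation or strand setting. Libraries were stranded, per the labels' protocols. No per-sample column was left out (0).

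From these means, log2(TPM + 1) differences from MCF10A were computed over the 13108 of 59427 symbols with at least 1 TPM in any line (Python 3.11.15, pandas 2.3.3, numpy 2.4.6, matplotlib 3.10.9). Only means per line were used, so no test was run, and the rule was tested on simulated data. Positions are from GENCODE 29 (GRCh38) and RefSeq, matched by symbol for 12995 genes. The members and the 33 gene lists, 5 of them cell type markers, were chosen with earlier results of these data known.

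Named genes are HRAS, CDH1, VIM, KRT5, KRT14 and TP63, the 15 higher and 15 lower members with the largest smallest difference and at least 10 TPM, up to 5 members per list, the 3 genes at each side of the threshold, runs, the 3 leading non-coding members and the 3 members most and least alike. MAPK3 is in a run; VIM-AS1 and the microRNA genes were added after their values were seen, and so was the GGGCGG motif. Promoter entries matched 76.6% of higher and 58.6% of lower members, under 80%, so shares of motifs over members are void and not given. Alternatives were another offset, filters, 5 scalings or centrings and higher thresholds. Leaving out libraries, limma and a block could not be run on means. The values of 1 member are not reported here.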

Additional observations from a re-analysis of the deposited data

How the results depend on the processing

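No paired analysis was possible because the columns are means per line and carry no replicate number, and for the same reason no library could be left out. The following counts differ by over 1.5 times from those reported; none was tested. With an offset of 0.1, 298 genes were higher and 568 lower in all 3 lines, 758 higher and 1211 lower in MCF10AT1, and 768 higher in MCF10DCIS. With at least 5 TPM, 275, 310 and 514 genes were higher in MCF10AT1, MCF10DCIS and MCF10CA1a. In MCF10DCIS, quantile normalization gave 847 higher and 815 lower, and median-of-ratios scaling 846 and 845. Rescaled TPM gave 279 higher in all 3 lines and 749, 1010 and 1219 higher in the single lines. At thresholds of 1.5 and 2, 42 and 18 genes were higher in all 3 lines and 133 and 67 lower. Alternatives chosen after seeing the data were the same RNA classes left out with the rest scaled to the MCF10A total, which gave 738 higher and 1023 lower in MCF10DCIS, and centring on each chromosome, which gave 803 and 667 there and 242 lower in all 3 lines. Of members, the higher share was 38.6% with quantile normalization, 35.4% with median-of-ratios, 37.7% with MCF10A-total scaling, 39.0% with centring and 34.4% with the offset of 0.1. Lower genes outnumbered higher ones among the shared genes under every alternative, but not in the single lines: MCF10DCIS turned round with quantile normalization, median-of-ratios and centring, as given, and MCF10CA1a with quantile normalization (842 higher, 786 lower), median-of-ratios (845, 788), rescaled TPM (1219, 1006), MCF10A-total scaling (937, 770) and centring (783, 686). Of 106 named members, 5 fell short of the threshold with rescaled TPM, 9 with median-of-ratios, 9 with MCF10A-total scaling, 11 with quantile normalization, 18 with centring and 0 with the offset of 0.1. The last count was fixed in advance, because a smaller offset widens the differences and can remove no member. Without counts of reads, the precision of low means is unknown.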

Other observations

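Some further members were picked after their values were seen and belong to none of the lists above. SCNN1B and SCNN1G, the beta and gamma subunits of the epithelial sodium channel, were lower. SCNN1B stood at 79.1 TPM in MCF10A and at 8.31, 3.16 and 0.10 TPM in MCF10AT1, MCF10DCIS and MCF10CA1a. SCNN1G stood at 36.5 TPM and at 14.7, 7.22 and 0.61 TPM, and its smallest log2 difference was -0.75 with chromosome centring. The alpha subunit gene SCNN1A was no member, at 142 TPM and 97.3, 58.5 and 37.2 TPM. Levels went down in the same order of lines for all 3. SCNN1B and SCNN1G lie on chromosome 16. The NADP-dependent isocitrate dehydrogenases were lower too, with IDH1 at 102 TPM and 45.7, 33.03 and 26.8 TPM, and IDH2 at 41.4 TPM and 13.6, 17.1 and 11.7 TPM. Neither kept its membership under every scaling: the smallest difference was -0.81 for IDH2 and -0.99 for IDH1 with quantile normalization. VEGFA, the angiogenic growth factor, stood at 75.7 TPM and at 27.4, 26.9 and 17.3 TPM. Carbonic anhydrases went both ways: CA2 was lower, at 120.0 TPM and 4.36, 17.7 and 14.6 TPM, and CA12 higher, at 0.45 TPM and 7.22, 8.76 and 2.79 TPM. CA13 was a lower member too, with a smallest log2 difference of -1.12, which was -0.45 with chromosome centring.

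A few further members are given singly. TFPI, the tissue factor pathway inhibitor, stood at 0.81 TPM and at 8.26, 7.21 and 8.61 TPM. PROCR, the protein C receptor, stood at 4.88 TPM and at 22.1, 17.9 and 26.7 TPM. Both were nearly level over the derived lines. SERPINA5, the protein C inhibitor, was lower at 17.4 TPM and 2.13, 5.26 and 0.57 TPM. P3H4, also a gene of collagen processing, lies in the same 2 Mb window of chromosome 17 as FKBP10. It was higher as well, at 3.02 TPM and 7.62, 22.4 and 31.1 TPM. HAS3, a hyaluronan synthase, stood at 0.25 TPM and at 2.52, 16.4 and 38.7 TPM, so like PLAT and FKBP10 it was highest in MCF10CA1a.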
